A study of Mus musculus with 8 samples.

Results

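A set of 10 heat shock genes of mouse bone marrow mesenchymal stem cells (MSCs) were followed on expression arrays: the small heat shock protein genes Hspb1, Hspb8 and Cryab, the HSP70 and HSP110 genes Hspa1a, Hspa1b, Hspa8 and Hsph1, the co-chaperone genes Dnajb1 and Bag3, and Hsf1, which encodes heat shock factor 1. Apart from Hspb1, the genes were chosen for comparison, as chaperone genes regulated by heat shock factor 1 and the gene of that factor. Hspb1 was included because it was higher in L63RhoA cells on these same arrays. The difference in Hspb1 is therefore a description of how the set was chosen. Of the 10 genes, 8 had at least 1 probe named in the platform annotation (9 probes in all of 25697), and 7 passed the filter on dim probes and were among the 8360 genes tested. No probe was named for Hspa1b or Hsf1, which were not analysed here, and the Hspb8 probe did not pass the filter.

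The MSCs, a purchased bone marrow culture at passage 6 grown in serum, received by lipid transfection a plasmid for Myc-tagged L63RhoA, a constitutively active form of the small GTPase RhoA, or the empty vector (EV). Each of the 2 groups had 4 Illumina MouseRef-8 arrays, which the series text ascribes to 4 independent experiments. The labels give 48 h from transfection to RNA extraction and the methods give 3 days. The share of cells that took up the plasmid is not given in the sources used here, and in a bulk sample more RNA per cell and more cells with the RNA cannot be told apart.

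Small heat shock proteins bind unfolding proteins without using ATP and hold them in a state from which they can be refolded. HSP70 then refolds or releases them in an ATP cycle that J-domain proteins start and nucleotide exchange factors such as HSP110 and BAG proteins complete. Heat shock factor 1 induces many of these genes under proteotoxic stress by binding heat shock elements, arrays of GAA units in alternating orientation. In contractile and adherent cells the family is also tied to the cytoskeleton: HSPB1 associates with actin filaments, and BAG3, together with HSPB8 and HSPA8, removes damaged filamin under tension.

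RefSeq promoter windows (250 bases before to 50 after a start site, assembly GRCm38.p6) were in the table used for 7 of the 10 genes; Cryab, Hspa8 and Hsf1 were not matched. The stretches below hold every exact match to the letters searched for in the first window of Hspb1, Hspa1a, Hspb8, Hsph1 and Bag3. Heat shock elements with an imperfect unit were not searched for. They are read 5′ to 3′ on the gene's strand, with capitals on bases that match GAANNTTC or TTCNNGAA (2 units, both of which read the same on either strand) or the longer GAANNTTCNNGAA or TTCNNGAANNTTC (3 units), which contain them.
Hspb1, chr5:135887759-135887858, plus strand: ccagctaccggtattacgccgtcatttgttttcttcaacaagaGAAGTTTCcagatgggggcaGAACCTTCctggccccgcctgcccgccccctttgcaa
Hspa1a, chr17:34972207-34972306, minus strand: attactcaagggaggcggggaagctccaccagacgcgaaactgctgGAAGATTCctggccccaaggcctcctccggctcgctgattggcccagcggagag
Hspb8, chr5:116422850-116422944, minus strand: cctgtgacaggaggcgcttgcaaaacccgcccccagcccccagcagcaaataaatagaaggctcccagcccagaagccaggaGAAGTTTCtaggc
Hsph1, chr5:149636337-149636416, minus strand: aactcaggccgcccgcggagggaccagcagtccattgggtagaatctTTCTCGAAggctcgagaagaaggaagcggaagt
Hsph1, chr5:149636287-149636316, minus strand: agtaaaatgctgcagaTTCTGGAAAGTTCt
Bag3, chr7:128523603-128523632, plus strand: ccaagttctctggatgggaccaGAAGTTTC

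The Hspb1 window held 2 separate matches of 2 units, at -117 to -110 and -97 to -90 from the start site. Hspb8 had the first of these same letters, GAAGTTTC, at 3 to 10, and Bag3 had them at 43 to 50. Hspa1a had 1 match at -104 to -97, and the Hspa1b window, which differed from it at 4 of 300 bases, had the same match. Hsph1 was the single gene of the set with a match of 3 units, at 37 to 49 of its first window, and also had TTCTCGAA at -33 to -26. Neither window of Dnajb1 held a match. In all, 6 of the 7 genes had a match of 2 units and 1 had a match of 3 units. Of all 32851 windows, 15.1% and 0.603% did. The genes were chosen as chaperones regulated by heat shock factor 1, so a higher share follows from that choice and nothing is read from it. The 6 genes also include both Hspa1a and Hspa1b, whose windows are nearly the same. The octamer GAAGTTTC was in 1.21% of windows on either strand. An exact CArG box, the serum response factor motif, was in none of the 7 genes' windows and in 1.63% of all windows. At that share a set this small was likely to hold none, so nothing is read from its absence. These letters describe the windows and no binding was measured.

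Hspb1 was the gene of the set with the clearest separation between L63RhoA and EV cells, about 1.85-fold, while the other tested genes were within 0.36 log2 units of EV in either direction. Its normalized log2 intensities were 6.87, 7.42, 7.45 and 7.13 on the L63RhoA arrays and 6.13, 6.30, 6.66 and 6.22 on the EV arrays (background corrected and quantile normalized, with replicates 1 to 4 in order). The groups did not overlap, although L63RhoA replicate 1, the lowest of its group, was 0.206 above EV replicate 3, the highest of its own. The means were 7.22 ± 0.27 and 6.33 ± 0.23 (SD, n = 4 each), a log2 difference of 0.89 that ranked 12 among the 8360 genes. The deposited signals, before any correction made here, were 207, 264, 266 and 210 in L63RhoA cells and 149, 134, 197 and 141 in EV cells, and the groups did not overlap there either. On the authors' processed log2 values the same probe gave 7.60, 7.96, 7.98 and 7.76 in L63RhoA cells and 7.20, 7.28, 7.48 and 7.25 in EV cells, a difference of 0.52 or 1.44-fold. The groups did not overlap on that scale either, and the correction made here was not applied to it.

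**Figure D1:**
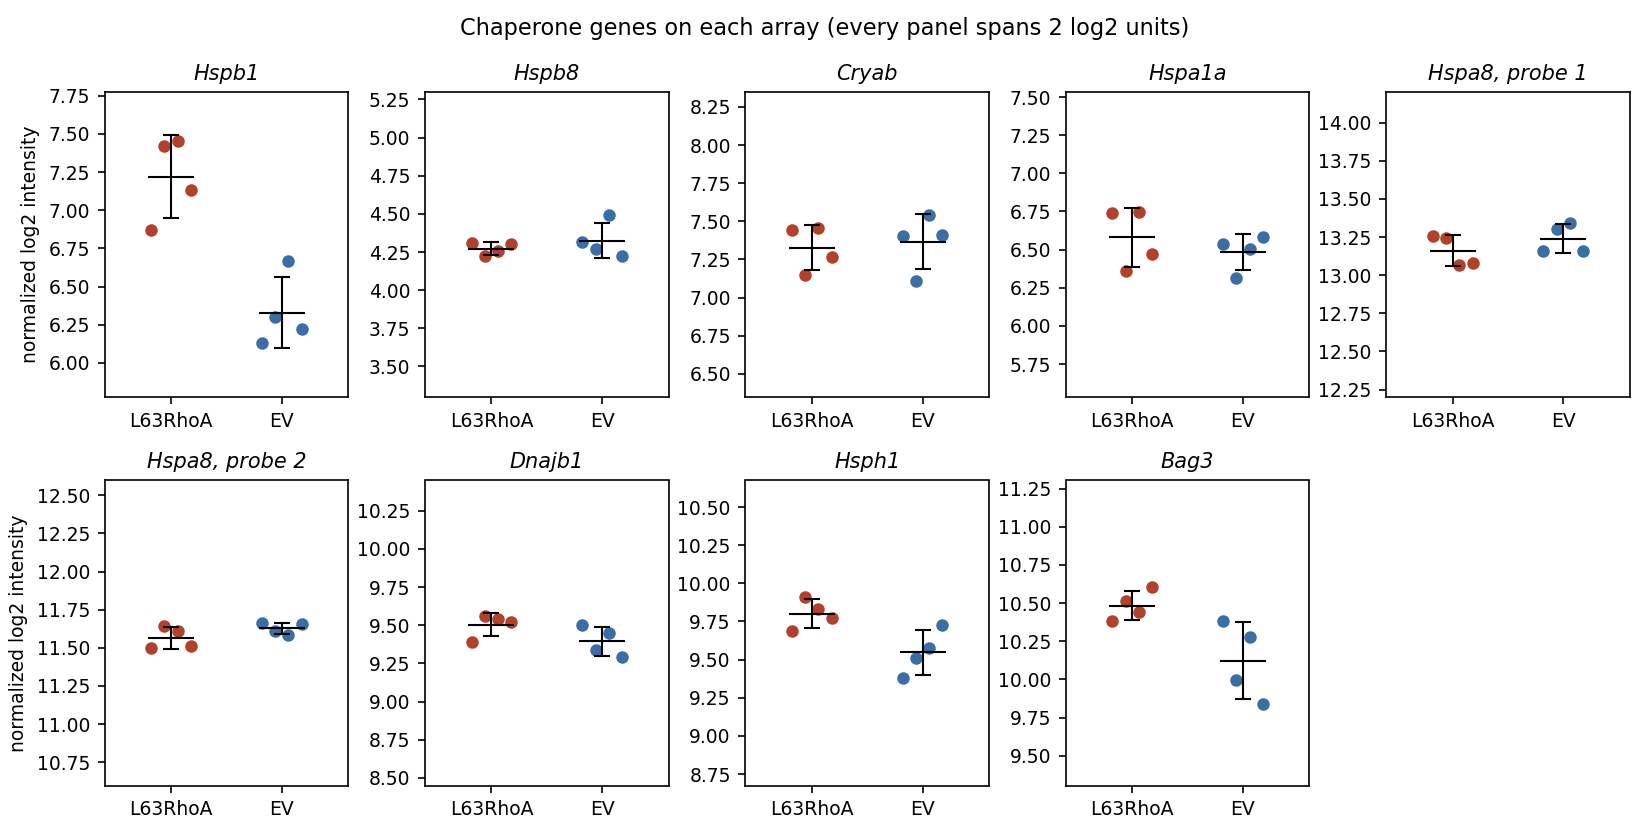
Normalized log2 intensity of each of the 9 probes on each array, L63RhoA left and EV right; every panel spans the same number of log2 units, and bars give the mean and SD of 4 arrays. Hspb1 is the panel in which the groups do not overlap, and Hspb8 lies at background in both groups.

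The other small heat shock protein genes of the set did not show this pattern. Cryab encodes alpha-B-crystallin, a close relative of HSPB1 that binds desmin and actin. Cryab read 7.44, 7.15, 7.46 and 7.27 in L63RhoA cells and 7.41, 7.11, 7.54 and 7.41 in EV cells, and the groups lay across each other. The log2 difference was -0.04 (95% confidence interval -0.29 to 0.22, limma adjusted p = 0.86), and its sign changed under 3 of 21 alternatives. The Hspb8 probe read 4.31, 4.22, 4.26 and 4.30 in L63RhoA cells and 4.31, 4.27, 4.49 and 4.22 in EV cells, with a detection p under 0.05 on 0 of 8 arrays. HSPB8 is the small heat shock protein that partners BAG3, and its level was not detectable with this probe in either group.

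Of the HSP70 genes, Hspa1a is the stress-inducible form and Hspa8 the constitutive one. Hspa1a read 6.74, 6.36, 6.75 and 6.47 in L63RhoA cells and 6.54, 6.31, 6.51 and 6.58 in EV cells. The difference was 0.10 (95% confidence interval -0.15 to 0.35, limma adjusted p = 0.62), smaller than the range within L63RhoA, and the groups overlapped. Hspa1a and Hspa1b are near-identical copies, so that the probe named for Hspa1a may read both. The 2 Hspa8 probes gave differences of -0.08 and -0.06. The brighter probe read 13.25, 13.25, 13.07 and 13.08 in L63RhoA cells and 13.16, 13.30, 13.34 and 13.16 in EV cells (95% confidence interval of the difference -0.28 to 0.12, limma adjusted p = 0.61). The second read 11.50, 11.64, 11.61 and 11.51 in L63RhoA cells and 11.66, 11.61, 11.58 and 11.66 in EV cells. Both Hspa8 probes thus had overlapping groups, and the interval of the brighter one stayed within 0.28 log2 units of no change.

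Bag3 and Hsph1, whose products are both exchange factors of HSP70, had the next largest differences after Hspb1, and neither passed the adjusted threshold. Bag3 encodes the nucleotide exchange factor that links HSP70 to small heat shock proteins and to autophagy. Bag3 read 10.38, 10.51, 10.44 and 10.60 in L63RhoA cells and 10.38, 9.99, 10.28 and 9.84 in EV cells. EV replicate 1 was level with the lowest L63RhoA array, and EV replicates 2 and 4 were the low ones. The difference was 0.36 (95% confidence interval 0.08 to 0.64, limma adjusted p = 0.14). EV replicates 2 and 4 were also the arrays with the lowest mean signal, 274 and 292 against 320.1 to 377 on the other arrays, and without them the Bag3 difference was 0.15 (adjusted p = 0.67).

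Hsph1 encodes HSP110, a large HSP70 relative that acts as its exchange factor. Hsph1 read 9.69, 9.91, 9.83 and 9.77 in L63RhoA cells and 9.38, 9.51, 9.57 and 9.73 in EV cells. EV replicate 4 lay above L63RhoA replicate 1, and no other EV array reached the L63RhoA range. The difference was 0.25 (95% confidence interval 0.03 to 0.47, limma adjusted p = 0.16). Dnajb1 encodes the HSP40 that stimulates the ATPase of HSP70. Dnajb1 read 9.39, 9.56, 9.54 and 9.52 in L63RhoA cells and 9.50, 9.34, 9.45 and 9.29 in EV cells, with overlapping groups and a difference of 0.11 (95% confidence interval -0.09 to 0.30, limma adjusted p = 0.46).

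Among the 7 tested genes, 1 passed an adjusted p under 0.05 with a higher level in L63RhoA cells, namely Hspb1, 0 passed with a lower level and 6 did not pass. Over all 8360 genes 0.383% were called higher and 0.323% lower (0.706% in either direction), and nothing is read from the count of 1, since Hspb1 was chosen on this contrast. Of the other 6 genes, Bag3 and Hsph1 had an unadjusted p under 0.05, as had 24.4% of all genes tested, 13.7% of them higher and 10.7% lower. The groups did not overlap for Hspb1 alone, with L63RhoA higher, against 9.93% of all genes (5.2% with L63RhoA higher and 4.72% with L63RhoA lower). The median log2 difference of the 7 genes was 0.11 and that of all genes 0.01.

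**Figure D2:**
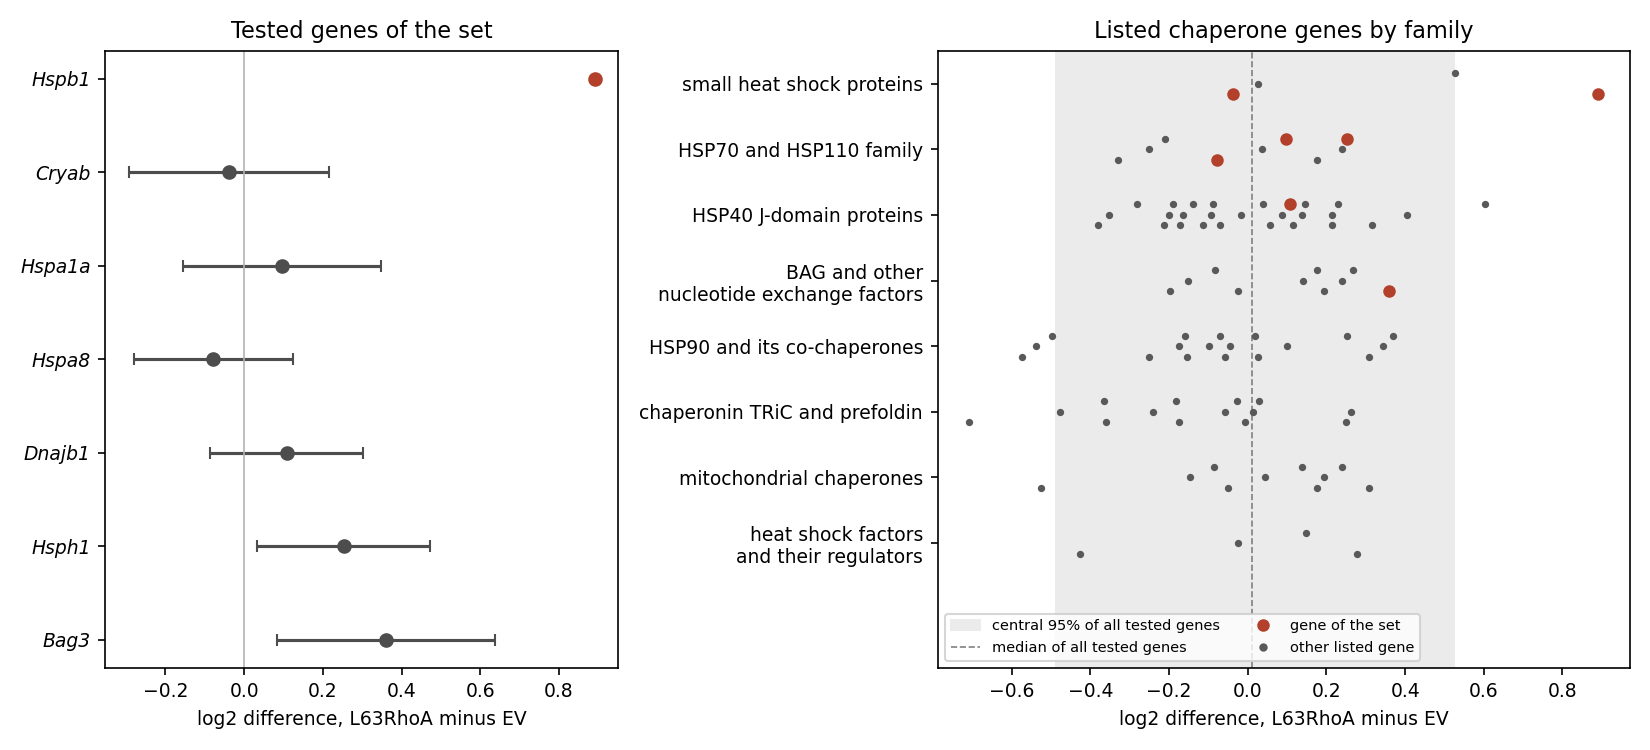
Left, log2 difference (L63RhoA minus EV) of the 7 tested genes, with 95% confidence intervals except for Hspb1, whose difference chose the set. Right, the same difference for every tested gene of 8 chaperone families; red points are genes of the set, the grey band holds the central 95% of all tested genes, and Hspb1 lies farthest to the right at 0.89.

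The size of the Hspb1 difference varied with the arrays used. It was 1.01 without L63RhoA replicate 1 and 1.00 without EV replicate 3, the arrays nearest to the other group, 0.81 to 0.92 without any 1 of the other 6, and 0.82 without EV replicates 2 and 4 together. Every alternative gave a difference above 0.52 for Hspb1. The adjusted p by which Hspb1 was chosen was above 0.05 under 9 of 21 alternatives, which describes the choice and tests nothing.

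**Figure D3:**
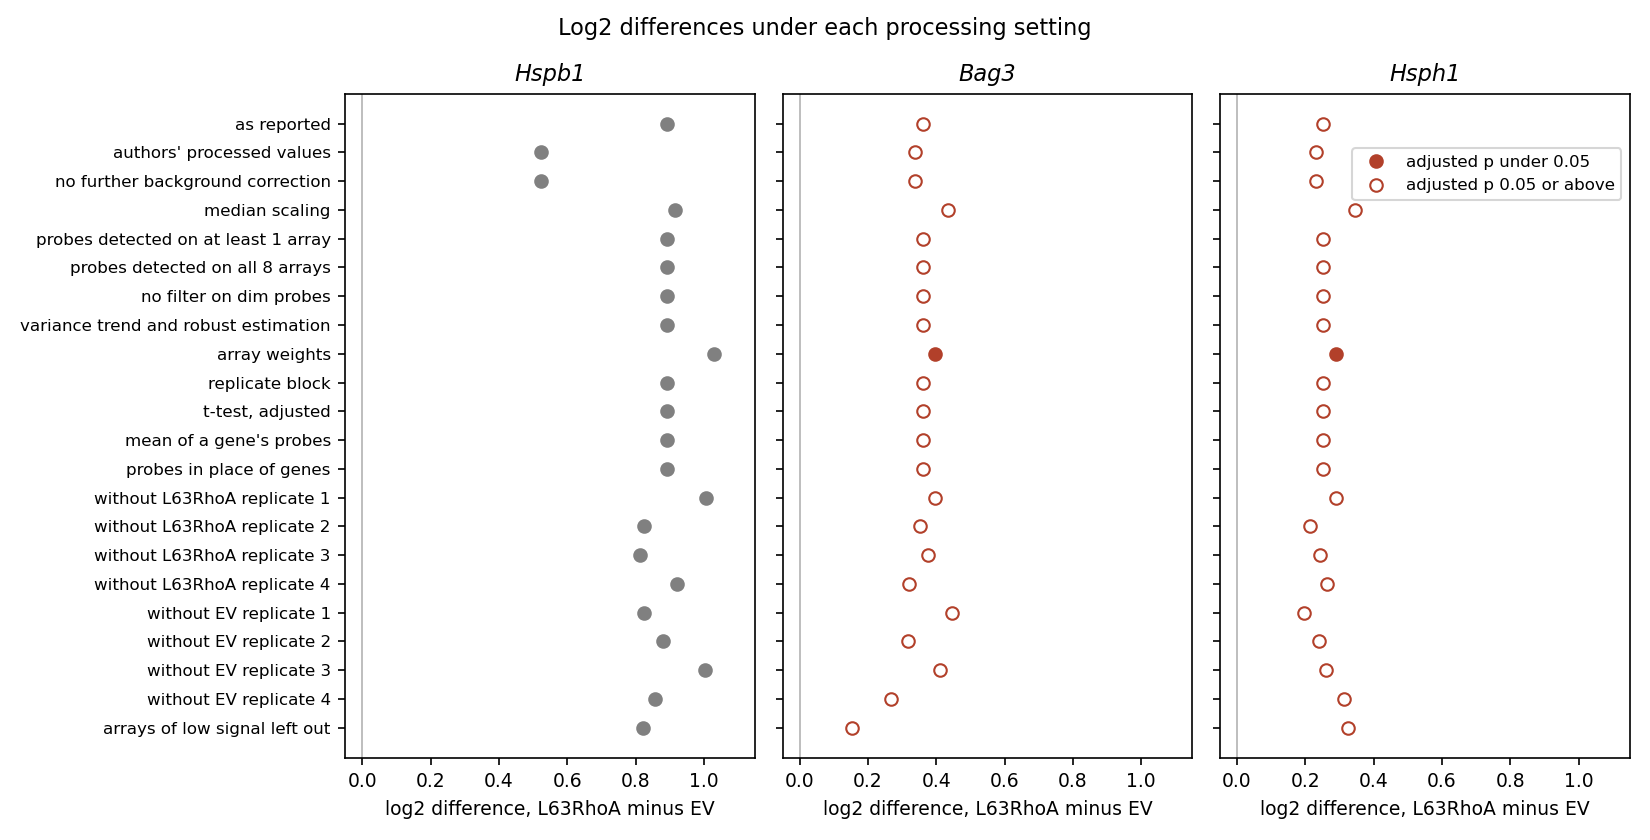
Log2 difference (L63RhoA minus EV) of Hspb1, Bag3 and Hsph1 under each processing setting. Points of Bag3 and Hsph1 are filled where the adjusted p was under 0.05, which occurs with array weights; Hspb1, whose difference chose the set, is drawn in grey with no call and stays between 0.52 and 1.03.

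The pattern of Hspb1 over the arrays was set against that of every tested gene by the root mean square (RMS) difference of log2 values, each gene centred on its mean over the 8 arrays. The genes most like it were Cbr2, a carbonyl reductase (RMS 0.13), Zyx, which encodes the focal adhesion protein zyxin (0.14), Elovl1, a fatty acid elongase (0.14), the kininogen gene Kng2 (0.14) and Fam20a, which encodes a secretory pathway pseudokinase (0.14). Zyx, for instance, averaged 11.55 ± 0.34 in L63RhoA cells and 10.72 ± 0.30 in EV cells. These closest genes were picked by their likeness to Hspb1, so their group differences follow from that choice. No p-value is given for them. The RMS difference includes the group difference on which Hspb1 was chosen. Genes with a smaller group difference, as the others of the set, are therefore farther by construction, and nothing is read from their distance. The genes of the set were farther from Hspb1 than these. Bag3 had an RMS difference of 0.36 and was the 1064th closest gene, and Hsph1 had 0.37 and was the 1170th. Dnajb1 (0.44), Hspa1a (0.49), Cryab (0.53) and Hspa8 (0.53) were farther still. This is a description over 8 arrays, which share their libraries and their normalization.

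**Figure D4:**
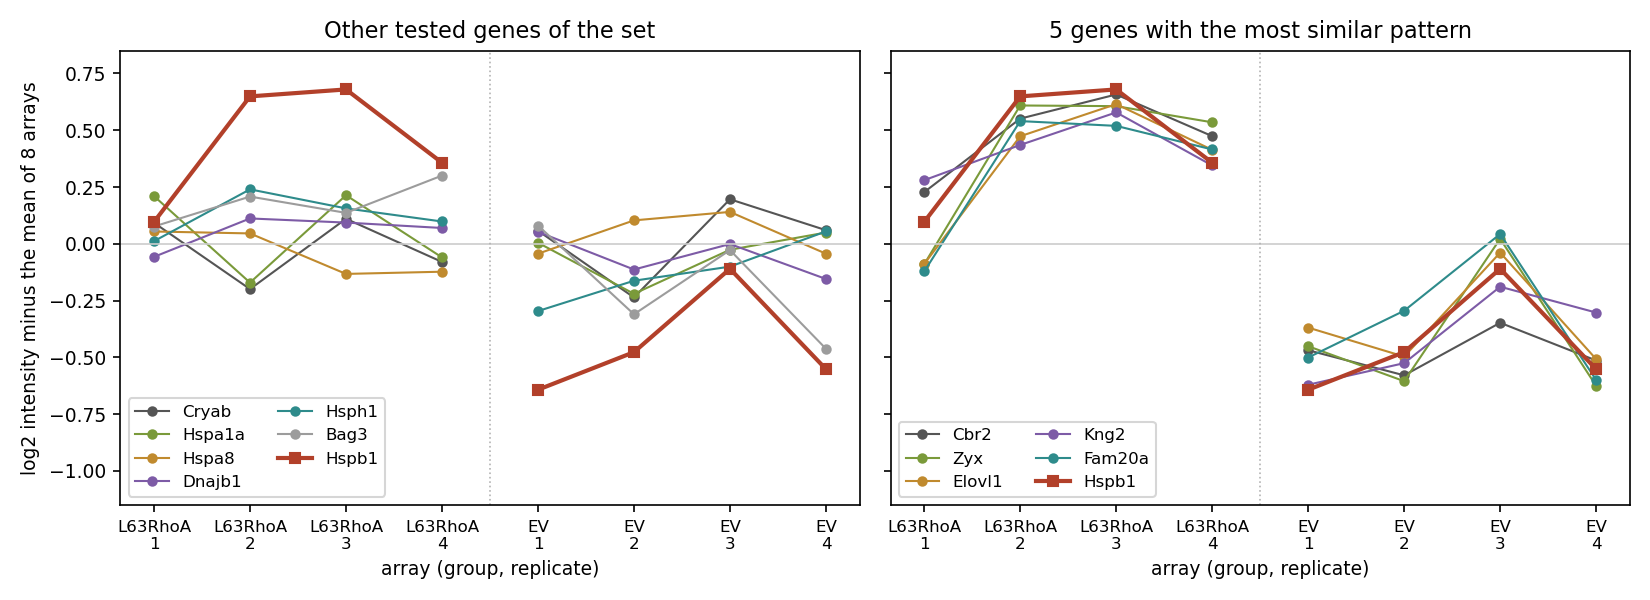
Log2 intensity minus the gene's mean over 8 arrays, for Hspb1 (squares) with the 6 other tested genes of the set (left) and with the 5 genes of most similar pattern (right). Lines only join points of 1 gene within a group, and replicates have no order. Hspb1 is lowest among L63RhoA arrays on replicate 1 and highest among EV arrays on replicate 3, as are all 5 genes on the right.

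The wider chaperone system was read from lists by family: 127 further genes were listed and 88 tested, of which 0 passed an adjusted p under 0.05 from limma in either direction. With an unadjusted p under 0.05, 12 of the 88 were higher and 14 lower, beside 13.7% and 10.7% of all genes. The differences ran from -0.71 to 0.60 with a median of -0.05, beside 0.01 for all genes, and 38 were positive and 50 negative, so that 43.2% were positive, against 52.2% of all genes. The groups did not overlap for 8 of the 88 genes, a share close to the 9.93% of all genes.

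Of the small heat shock protein family, 10 genes were listed and 4 tested. Hspb6, which encodes HSP20, an actin-associated relative of HSPB1, read 10.42, 10.81, 10.91 and 10.72 in L63RhoA cells and 10.30, 9.90, 10.71 and 9.85 in EV cells. EV replicate 3 lay within the L63RhoA range and the other EV arrays below it. The difference was 0.53 (limma adjusted p = 0.14), and without the dim EV replicates 2 and 4 it was 0.21 (adjusted p = 0.70). Hspb2 had a difference of 0.03 (adjusted p = 0.92). Hspb3, Hspb7, Hspb8, Cryaa and Odf1 were detected on none of the arrays.

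In the HSP70 and HSP110 family 9 of 15 genes were tested and 0 passed, with a median difference of 0.04. Hspa9, the mitochondrial HSP70, had 13.20 ± 0.04 in L63RhoA cells and 12.96 ± 0.08 in EV cells, with no overlap and an adjusted p of 0.14 from limma, but its second probe gave -0.08. Among the BAG proteins and other exchange factors, 10 of 10 were tested and 0 passed. Bag1, whose product binds HSP70 and the proteasome, had 12.30 ± 0.16 in L63RhoA cells and 12.06 ± 0.06 in EV cells (limma adjusted p = 0.17). The family's median was 0.16, with 6 genes positive and 4 negative.

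Of the J-domain proteins, the HSP70 partners to which Dnajb1 belongs, 27 of 42 were tested and 0 passed, 13 with a positive and 14 with a negative difference. Dnajb2 had the largest positive one, 0.60 (limma adjusted p = 0.14), with 7.87, 8.67, 8.61 and 8.73 in L63RhoA cells and 7.70, 7.59, 8.29 and 7.89 in EV cells. L63RhoA replicate 1 was low and lay within the EV range. Dnajc15, a J protein of the mitochondrial inner membrane, had 9.97 ± 0.13 in L63RhoA cells and 10.25 ± 0.06 in EV cells (limma adjusted p = 0.13), with no overlap.

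Of HSP90 and its co-chaperones 18 of 20 genes were tested, 7 positive and 11 negative, and 0 passed. Sugt1, an HSP90 co-chaperone, had 6.02 ± 0.27 in L63RhoA cells and 6.55 ± 0.12 in EV cells, with no overlap (difference -0.54, limma adjusted p = 0.087). Hsp90b1, the HSP90 of the endoplasmic reticulum, had 12.17 ± 0.28 in L63RhoA cells and 12.66 ± 0.17 in EV cells (difference -0.50, limma adjusted p = 0.11). Of the chaperonin TRiC, which folds actin and tubulin, and prefoldin, 14 of 16 genes were tested, 4 positive and 10 negative, with a median of -0.12. The prefoldin subunit gene Vbp1 had 8.93 ± 0.30 in L63RhoA cells and 9.40 ± 0.26 in EV cells (limma adjusted p = 0.14), and Uri1, a prefoldin-like gene, had 6.94 ± 0.25 in L63RhoA cells and 7.30 ± 0.17 in EV cells (limma adjusted p = 0.15). Chosen after its values were seen, the TRiC subunit gene Cct5 had the most negative difference of all listed chaperones, -0.71, with an SD of 0.63 in L63RhoA cells and 0.44 in EV cells and an adjusted p of 0.18 from limma. In the mitochondrial matrix list 10 of 11 genes were tested and 0 passed. Trap1, the mitochondrial HSP90, had 8.92 ± 0.14 in L63RhoA cells and 8.61 ± 0.02 in EV cells, with no overlap (difference 0.31, limma adjusted p = 0.11).

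Of the heat shock factors and their regulators, 4 of 7 listed genes were tested (Hsf2, Hsf4, Hsbp1 and Hikeshi) and 0 passed. Hsf2, which can form complexes with HSF1, read 7.18, 6.72, 6.81 and 6.84 in L63RhoA cells and 6.81, 7.91, 7.06 and 7.47 in EV cells, with overlap and a difference of -0.43 (limma adjusted p = 0.23). Hsf4 had 4.80 ± 0.08 in L63RhoA cells, where it was detected on 4 arrays, and 4.52 ± 0.03 in EV cells, where it was detected on 1. Hsf4 met the filter through the L63RhoA arrays, where it was higher, so no p-value is given for it. Of 24 chaperone and ubiquitin genes known to be induced through HSF1, which include most of the set, 18 were tested. The 1 that passed was Hspb1, which was chosen on this contrast, so that nothing is read from this count beside the 0.383% of all genes called higher. Of the 18 differences 8 were positive and 10 negative, and the median was -0.04. Chosen after its values were seen, Hsp90aa1, the inducible cytosolic HSP90, had 7.63 ± 0.48 in L63RhoA cells and 8.21 ± 0.46 in EV cells (difference -0.57, limma adjusted p = 0.21), with overlapping groups.

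The machinery in which BAG3 works with HSPB8 and HSPA8 on filamin was covered by 5 tested genes of 12 listed. Lamp2, a lysosomal membrane protein gene, had 12.02 ± 0.07 in L63RhoA cells and 12.35 ± 0.05 in EV cells on its brightest probe (difference -0.33, limma adjusted p = 0.087). Its 3 other probes gave differences of 0.01, 0.00 and -0.31, so that the probes of Lamp2 disagreed.

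Probes with a detection p under 0.05 numbered 12981, 12119, 11927 and 11925 on L63RhoA replicates 1 to 4. On EV replicates 1 to 4 they numbered 12733, 12928, 12546 and 12742. L63RhoA replicates 2 to 4 were thus below every EV array, and replicate 1 was above them all. Rhoa was detected by its 1 probe on 0 of 8 arrays, with log2 values of 4.25 to 4.42 in L63RhoA cells and 4.20 to 4.38 in EV cells, and whether that probe reads the transfected plasmid is not given in the sources used here. Within the groups, 1 component held 48.2% of the variance, and L63RhoA replicate 1 and EV replicate 3 lay at its opposite ends. Of 12 MSC markers 9 were tested and 0 passed. Nes, for nestin, differed by -0.26 (limma adjusted p = 0.15) and Cd44 by -0.33 (limma adjusted p = 0.17), while Thy1 and Lepr were detected on no array. Of the markers listed for other cell types, Ptprc, Itgam, Adgre1, Lyz2, Cd3e and Spi1 of blood cells were detected on no array. Nor were Cdh5 and Tie1 of endothelium, Adipoq, Plin1 and Fabp4 of adipocytes, or Bglap and Ibsp of osteoblasts. Endothelial Flt1 and Vwf were detected on all 8 arrays and differed by -0.05 and 0.32 (limma adjusted p = 0.79 and 0.31). Endothelial Pecam1 was detected on at most 2 arrays by either of its probes. Haematopoietic Cd34 and Cd14 differed by 0.17 and 0.07 (limma adjusted p = 0.51 and 0.60).

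In 1 marker list the summed level did not overlap between the groups, and Lpl was its brightest gene. The summed level of the 3 detected of 9 adipocyte and osteoblast markers was 341 to 380 in L63RhoA cells and 239 to 310.3 in EV cells. In it Lpl, lipoprotein lipase, passed with a difference of 0.52 (limma adjusted p = 0.042, lost under 10 of 21 alternatives), while Sp7 had 0.37 (limma adjusted p = 0.30) and Pparg 0.15 (limma adjusted p = 0.58). The summed endothelial markers overlapped, 451 to 502.2 in L63RhoA cells and 404 to 501.8 in EV cells, with 5 of 7 detected. Among them Tek was detected on 4 L63RhoA arrays and on 0 EV arrays. Tek met the filter only through the L63RhoA arrays, where it was higher, so no p-value is given for it. With EV levels held no lower than the dimmest detected probe on each array, its means differed 1.25-fold. That is not a lower limit, since its fold difference fell to 1.10 under the alternatives. Kdr was near background, detected on 3 L63RhoA arrays and 2 EV arrays with means of 4.77 and 4.49. Its difference was 0.28 (limma adjusted p = 0.22). The part of these markers in the Hspb1 difference was not tested.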

How the data were processed

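The deposited tables used were the authors' signal intensity on a linear scale with a detection p-value for each probe and array, extracted with GenomeStudio per the submitters' processing notes, and the authors' processed log2 values. The methods call the extracted intensities background corrected, but the lowest deposited one was 75.2, so no array's background had been brought down to 0. The processed values equalled log2 of the quantile normalized intensities, and the variance stabilizing transformation named in the methods was not visible in them. Probes were named through the platform annotation (1 symbol for 23978 of 25697, several for 0, none for 1719), updated through gene identifiers for 23962.

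The background was corrected from the detection p-values and the arrays were quantile normalized by neqc in limma 3.58.1 (R 4.3.3), with an offset of 16. A probe was retained if detected (p under 0.05) on 4 or more of the 8 arrays, which 12349 were, and the brightest retained probe stood for its gene. L63RhoA was compared with EV by limma (lmFit, eBayes, two-sided) with Benjamini-Hochberg adjustment over 8360 genes, and the scripts were tested on simulated data. With 4 arrays a group, the number of arrays limits the precision. The array p-values of the methods came from permutations with a false discovery rate, which was not rerun here. Markers and promoter sequences were handled as stated beside them, and the promoter table is that of RefSeq (GRCm38.p6).

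The genes of the set and all lists were chosen with earlier results of these data known. Named genes were all genes of the set, in every other list each gene past the threshold and the 2 others with the smallest p, and the 5 genes most like Hspb1. Genes that complete a short count (Hspb2, Flt1, Vwf, Pecam1 and the undetected family members) were named after their values were seen. Alternatives were the authors' values, other background correction, scaling, filters, variance models, array weights, the replicate block, the t-test that the methods give for 2-group assays other than the arrays, other ways of treating a gene's probes, and leaving out each array. A fit without EV replicates 2 and 4, which had the lowest mean signal, was chosen after seeing the data.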

Additional observations from a re-analysis of the deposited data

Results flagged for a closer look

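Of 62 groups of 4 values tested for a sample that stands apart (its gap to the nearest value over the whole range, against Dixon's critical value), 3 passed, about as many as chance gives at 1 in 20. In L63RhoA cells Dnajb2 read 7.87 on replicate 1, below the 8.61 to 8.73 of the other 3 arrays. Cd44 read 9.52 on L63RhoA replicate 1, above the 9.24 to 9.25 of the others. Cd14 read 8.07 on L63RhoA replicate 4, below the 8.18 to 8.19 of the others. No gene of the set stood out in this way.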

How the results depend on the processing

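Counts of called genes depended on the setting. Genes higher and lower in L63RhoA cells numbered 32 and 27 as reported, 61 and 55 with the authors' values (and, identically, with no further background correction), 70 and 69 with a variance trend and robust estimation, 1208 and 890 with array weights, 16 and 11 by the t-test that the methods name for 2-group assays, though not for the arrays, after adjustment (887 and 728 at an unadjusted p under 0.05), 5 and 2 with the 2 dimmest arrays left out, and 11 to 699 and 6 to 561 on leaving out each array in turn. The highest counts came without L63RhoA replicate 1 (699 and 561) and without EV replicate 3 (542 and 375). Genes of the set called higher numbered 1 as reported, 0 without a filter on dim probes, 3 with array weights (Hspb1, Bag3 and Hsph1), 0 and 3 by the adjusted and unadjusted t-test, 0 with the dimmest arrays left out, and 0 to 1 on leaving out each array; 0 were lower throughout. These counts include Hspb1, which was chosen on this contrast. Other listed chaperones called higher and lower were 0 and 0 as reported, 0 and 1 with the authors' values, no further correction or the trend, 12 and 12 with array weights, 6 and 8 by the unadjusted t-test, and 0 to 6 and 0 to 11 on leaving out each array (4 and 11 without L63RhoA replicate 1, 6 and 5 without EV replicate 3). Cryab changed sign under median scaling (0.0066), without L63RhoA replicate 2 (0.022) and without EV replicate 3 (0.020), its range on leaving out each array being -0.124 to 0.022, and Cd34 (-0.031) and Pparg (-0.081) with the dimmest arrays left out. The alternatives were summarised over 30 genes, those of the set with a probe and those named from the other lists by rule. Of their values, 545 kept direction and side of the threshold, 19 lost the call, 38 gained it and 5 reversed. Hspb8 added no value to this count. The 5 genes most like Hspb1 and the genes named after their values were seen were not among the 30. The causes were not tested.

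The deviations from the group mean of arrays with the same replicate number correlated by -0.10, -0.22, 0.27 and -0.23. Deviations within a group depend on each other, and a single component held 48.2% of their variance. These correlations therefore cannot show whether the numbers pair the samples. With the number as a replicate block 11 genes were higher and 7 lower. A slide block was not run, since the slides of the arrays were not known here.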
